A study of Mus musculus with 6 samples.

Results

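Clade B serpins are a family of protease inhibitors that lack a classical secretion signal and act mostly inside the cell. A serpin offers an exposed loop as bait; the target protease cuts it, the inhibitor snaps into a new shape, and the protease is trapped on it for good. Several clade B members block the proteases that cytotoxic lymphocytes and neutrophils use to kill, which is why they have been studied in tumour cells, while maspin (Serpinb5), first described in mammary epithelium, does not work as a protease inhibitor. Values are given here for 8 clade B genes other than Serpinb2: Serpinb1a, Serpinb5, Serpinb6a, Serpinb6b, Serpinb8, Serpinb9, Serpinb9b and Serpinb9g. They were found as the probe sets whose platform annotation lists exactly 1 of these symbols, which gave 14 of the 45101 probe sets of the array; the leading probe set of a gene was chosen by its mean level, the highest over all arrays. The genes themselves were selected on earlier results of these same data. Of the 18193 genes with a probe set of their own, 18 were clade B serpins, so the 8 genes are part of that family and 10 others served as context.

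The cells were MVT1, a metastatic mouse mammary tumour line tagged with green fluorescent protein, sorted by that tag from the lungs of FVB/N mice. The line was given by vein, so the lung metastases were not shed by a primary tumour. There were 3 groups of 2 arrays each: tumour cells taken from vehicle-treated mice 1 week after injection, from vehicle-treated mice 2 weeks after it, and from GW2580-treated mice at the later time. GW2580 inhibits the kinase of CSF1R, the growth factor receptor of macrophages, and was gavaged daily at 160 mg per kg in hydroxypropylmethylcellulose and Tween from 1 week after injection. The design text gives 2 mice for each vehicle group, while for the GW2580 arrays the labels state no number of mice. The p-values therefore measure the spread between these samples only, which may be technical. The comparisons addressed how metastatic cells change from the micrometastatic to the macrometastatic stage, and how CSF1R inhibition changes them.

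Values are log2 expression values, so a difference of 1 is a factor of 2. A gene was tested if its leading probe set had a mean of at least 4.97, the 40th percentile of all non-control probe sets, and it is said to have risen or fallen where its adjusted p in limma was under 0.05 over the 13090 genes tested. Serpinb6a, Serpinb6b, Serpinb8, Serpinb9, Serpinb9b and Serpinb9g passed that filter; Serpinb1a and Serpinb5 lay below it and were not tested. The labelled epithelial identity was checked on 13 luminal mammary markers, of which 8 lay above the filter and Cdh1, Pgr, Foxa1, Elf5 and Csn2 below it. The simple keratins Krt8 and Krt18 read 13.52 to 13.82 and 12.93 to 13.44 over the arrays, and Epcam 6.85 to 7.31, while Cdh1, the E-cadherin gene, read 3.49 to 3.99, and Pgr, Foxa1 and Elf5, for a hormone receptor and luminal transcription factors, had means of 4.08, 4.16 and 4.07. Arrays of a group correlated at 0.988 to 0.992 over the genes tested. The beta-actin controls, a measure of RNA integrity, gave a 3' minus 5' difference of 1.20 on 1 array (2-week vehicle, replicate 2) and of 0.38 to 0.50 on the others. For Serpinb9, Serpinb9b and Serpinb9g the difference from 1 to 2 weeks is therefore also given without that array.

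In RefSeq's gene table the family falls into a cluster on chromosome 1, which holds Serpinb5 and Serpinb8, and one on chromosome 13, which holds the other 6 genes. Serpinb6b, Serpinb9 and Serpinb9b are successive coding genes there, and Serpinb9g lies further along, next to Serpinb9h. RefSeq's promoter table (GRCm38.p6) matched 7 of the 8 genes; Serpinb1a was not matched. The 250 bases before the annotated start are shown for the 3 genes that changed, all on the plus strand of chromosome 13, since Serpinb9 and Serpinb9b are neighbours and Serpinb9g shares most of its stretch with some of the other genes of its cluster. They are written in lower case throughout because none of the searched motifs was found in them; Serpinb9 lies at chr13:33004291-33004540, Serpinb9b at chr13:33027164-33027413 and Serpinb9g at chr13:33484540-33484789.
Serpinb9: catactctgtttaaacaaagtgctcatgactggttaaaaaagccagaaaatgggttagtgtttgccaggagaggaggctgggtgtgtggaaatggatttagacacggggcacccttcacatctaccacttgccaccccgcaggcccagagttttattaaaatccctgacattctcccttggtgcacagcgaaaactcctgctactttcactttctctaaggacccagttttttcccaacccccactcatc
Serpinb9b: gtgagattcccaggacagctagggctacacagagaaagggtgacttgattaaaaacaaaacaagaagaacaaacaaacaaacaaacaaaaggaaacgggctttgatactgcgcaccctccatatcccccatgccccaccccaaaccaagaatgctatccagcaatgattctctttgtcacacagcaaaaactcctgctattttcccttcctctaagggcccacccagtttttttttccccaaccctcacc
Serpinb9g: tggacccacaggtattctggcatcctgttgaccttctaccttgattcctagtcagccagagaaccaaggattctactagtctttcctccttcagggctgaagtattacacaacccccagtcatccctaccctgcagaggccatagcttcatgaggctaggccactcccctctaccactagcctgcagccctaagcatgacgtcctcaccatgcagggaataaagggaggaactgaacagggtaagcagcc
Aligned end to end, the Serpinb9 and Serpinb9b stretches were identical in 154 of 274 alignment columns (56.2%). The Serpinb9g stretch was identical in 92.9% of columns to that of Serpinb9e, 87.8% to Serpinb9d and 87.4% to Serpinb9f, paralogs further up the cluster. It was identical in 44.9% of columns to that of its neighbour Serpinb9h, and in 60.2% at most to that of Serpinb9c. For scale, clade B stretches on different chromosomes reached up to 50.2% in the same alignment (Serpinb3a and Serpinb1b).

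The motifs searched on both strands of this window were AP-1 (TGANTCA), NF-kB by its consensus, STAT (TTCNNNGAA), CRE (TGACGTCA) and a TATA box (TATAAA). No stretch shown holds more than 1 of them, so no matches overlap. The 2 members on chromosome 1 are shown for contrast, with the AP-1 match in capitals; Serpinb5 lies at chr1:106860925-106861174 and Serpinb8 at chr1:107589756-107590005, both on the plus strand.
Serpinb5: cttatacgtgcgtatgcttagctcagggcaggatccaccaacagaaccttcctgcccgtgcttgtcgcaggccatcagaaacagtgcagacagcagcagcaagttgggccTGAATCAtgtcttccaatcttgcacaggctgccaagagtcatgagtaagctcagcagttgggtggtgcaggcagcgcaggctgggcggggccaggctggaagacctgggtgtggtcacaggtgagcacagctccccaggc
Serpinb8: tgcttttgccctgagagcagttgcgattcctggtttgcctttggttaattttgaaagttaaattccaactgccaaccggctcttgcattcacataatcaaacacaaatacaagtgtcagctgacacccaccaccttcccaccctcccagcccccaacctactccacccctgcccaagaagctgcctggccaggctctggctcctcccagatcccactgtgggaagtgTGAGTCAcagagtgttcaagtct
Over all 32851 promoters in the table, 6.75% held an AP-1 match in this window, and 7.25%, 7.02%, 1.55% and 12.4% held an NF-kB, STAT, CRE and TATA match. Of the clade B promoters on chromosome 1, 8 of 13 held an AP-1 match (7 of 11 genes), and of those on chromosome 13, 0 of 19 (15 genes). TATA matches were split likewise, in 9 of 13 promoters on chromosome 1 (7 of 11 genes, but 0 of the 2 members) and 1 of 19 on chromosome 13. Of the 2 listed starts of Serpinb6a, 1 held a STAT match. A match describes the letters only, and the lack of one says nothing about the factor.

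Serpinb9, Serpinb9b and Serpinb9g fell between 1 and 2 weeks in vehicle-treated mice, while Serpinb6a, Serpinb6b and Serpinb8 did not pass the test. Thus 3 of the 6 tested members were called, all lower at 2 weeks; over all genes tested, 2.71% were called lower, 3.74% higher and 6.45% in either direction. The groups did not overlap for 4 of the 6 lower (25.2% of all genes) and for Serpinb6b higher (31.5%), 3 had an unadjusted p under 0.05 (23.6%), and 2 differed by more than 0 (52.9%). The members' median difference was -0.42, against 0.02 for all genes tested. The genes were chosen with earlier results of these data known, so this count is a description of them.

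Serpinb9b, which encodes a mouse paralog of the granzyme inhibitor Serpinb9 and has been described as an inhibitor of granzyme M, read 9.39 and 8.66 at 1 week, 7.08 and 7.14 at 2 weeks with vehicle, and 8.31 and 8.04 at 2 weeks with GW2580. The 3 groups did not overlap: the 1-week arrays were highest, the GW2580 arrays lay between, and the vehicle arrays at 2 weeks were lowest. From 1 to 2 weeks with vehicle it fell 3.77-fold, by 1.92 log2 units (SE 0.23, adjusted p 0.0102). The size of the fall lay between -2.28 and -1.55 with any array left out; without replicate 1 of the 1-week group, which had the highest value, it was -1.55 and no longer passed (adjusted p 0.0687). Without the array with the high actin ratio it was -1.94 and passed.

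Serpinb9 itself, which inhibits granzyme B and protects cytotoxic lymphocytes from their own granules, read 10.53 and 10.55 at 1 week, 9.73 and 10.05 at 2 weeks with vehicle and 10.22 and 10.05 with GW2580. The 1-week arrays stood above both later groups, and the later groups overlapped. It fell 1.57-fold from 1 to 2 weeks with vehicle, by 0.65 log2 units (SE 0.15, adjusted p 0.0425). Without the array with the high actin ratio Serpinb9 differed by -0.81. Its second probe set, which read 7.91 and 7.69, then 6.83 and 7.40, and 7.48 and 6.99, differed by -0.69 (SE 0.23) in the same comparison, and its adjusted p over all probe sets was 0.18. The call on the leading probe set was lost when any of the 4 vehicle arrays was left out, with differences of -0.81 to -0.49 and adjusted p of 0.0731 to 0.26, and also with the mean of both probe sets (-0.67, adjusted p 0.067).

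Serpinb9g, another paralog of the Serpinb9 group in rodents, read 6.75 and 6.51 at 1 week, 5.47 and 5.96 at 2 weeks with vehicle, and 4.79 and 5.13 with GW2580. Here too the groups did not overlap, but the order differed from that of Serpinb9b: the GW2580 arrays were lowest, around the filter value of 4.97. Without the array with the high actin ratio Serpinb9g differed by -1.16 from 1 to 2 weeks. With all arrays it fell 1.89-fold from 1 to 2 weeks with vehicle, by 0.92 log2 units (SE 0.20, adjusted p 0.039). That call was also lost when any of the 4 vehicle arrays was left out, with differences of -1.16 to -0.67 and adjusted p of 0.0518 to 0.281. A further probe set, which the annotation assigns jointly to Serpinb9h, Serpinb9g, Serpinb9e and Serpinb9f and which is therefore counted for none of them, read 7.82 and 7.75, then 6.28 and 6.77, then 6.33 and 6.52. It differed by -1.26 (SE 0.18) from 1 to 2 weeks, with an adjusted p over all probe sets of 0.0214. How far transcripts of these genes bind each other's probes was not tested, so the Serpinb9g values are uncertain as values of that gene alone.

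On the scale of all probe sets without a filter, where 45037 features share the correction, the 3 falls had the same sizes, and Serpinb9b alone passed (adjusted p 0.0168, against 0.066 for Serpinb9 and 0.0607 for Serpinb9g).

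**Figure D1:**
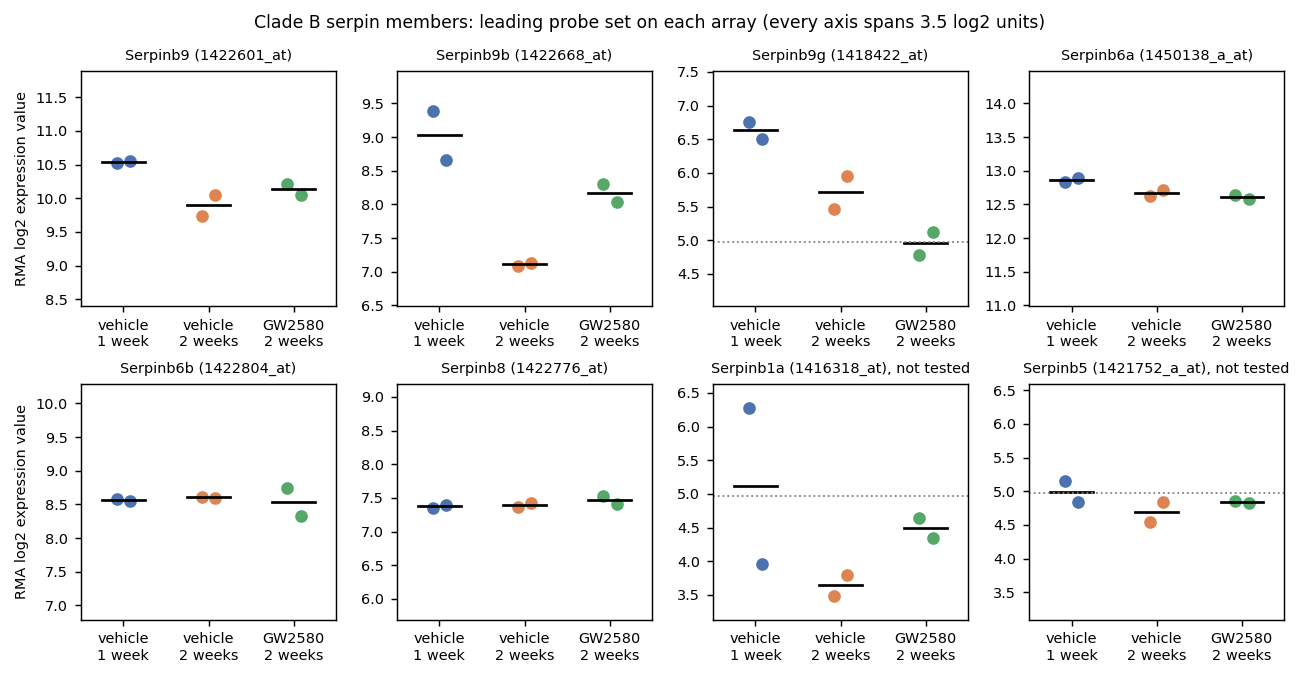
RMA log2 expression value of the leading probe set of each of the 8 genes (vertical axis, 3.5 log2 units in every panel) in the 3 groups; points are the 2 arrays of a group, the bar is their mean and the dotted line the filter value of 4.97. Serpinb9b drops from 9.39 and 8.66 to 7.08 and 7.14 and lies between these with GW2580, Serpinb9g is lowest with GW2580, and Serpinb1a stands at 6.28 on a single 1-week array.

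The 3 other tested members kept closer values. Serpinb6a, which encodes an inhibitor of cathepsin G and related serine proteases, read 12.84 and 12.89 at 1 week, 12.63 and 12.71 at 2 weeks with vehicle and 12.64 and 12.58 with GW2580. The 1-week arrays were above all 4 later ones, but the difference of -0.20 (95% interval -0.48 to 0.08) did not pass (adjusted p 0.373). Serpinb6b, a mouse paralog reported to inhibit granzyme A, read 8.58 and 8.54, then 8.61 and 8.59, then 8.75 and 8.33, a difference of 0.04 (95% interval -0.32 to 0.40) from 1 to 2 weeks. Its GW2580 arrays lay on either side of the other 4. Serpinb8, which encodes an inhibitor of the processing protease furin, read 7.35 and 7.40, then 7.37 and 7.42, then 7.53 and 7.41 on its leading probe set. The difference from 1 to 2 weeks was 0.02 (95% interval -0.26 to 0.30), or -0.015 with arrays scaled to a common 75th percentile. On its second probe set Serpinb8 read 5.65 and 6.10, 6.19 and 6.30, and 6.76 and 6.30, a difference of 0.37 (SE 0.20) that did not pass over all probe sets (adjusted p 0.433). The intervals for these genes leave room for changes of about the size measured for Serpinb6a, and they do not reach the fall of Serpinb9b.

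Serpinb1a and Serpinb5 had means below the filter, 4.42 and 4.84 on their leading probe sets; no background level was measured. Serpinb1a, which encodes an inhibitor of neutrophil elastase, cathepsin G and proteinase 3, read 6.28 and 3.96 at 1 week, 3.48 and 3.80 at 2 weeks with vehicle, and 4.64 and 4.35 with GW2580. A single array, replicate 1 of the 1-week group, set its 1-week mean of 5.12 ± 1.64 (SD, n = 2), and its second probe set read 3.27 to 3.88 on all arrays. Fitted with no filter, its difference from 1 to 2 weeks was -1.48 (SE 0.59, adjusted p 0.21). On the same array the fibroblast and smooth muscle markers were highest, with a mean over 10 genes of 8.02 against 6.72 to 7.34 on the other 5 arrays, as were the lung epithelial (7.62 against 6.47 to 7.44), basal (6.02 against 5.54 to 5.67), endothelial (5.57 against 5.32 to 5.45) and NK and T lymphocyte means (5.77 against 5.56 to 5.72). The neutrophil markers were not, with a mean over 10 genes of 5.73 against 5.67 to 6.12. Nor were the macrophage and monocyte, dendritic cell, luminal, and erythroid and platelet means highest on that array. Among neutrophil markers Mpo, Camp and Mmp8 lay below the filter; the part of other cells in the Serpinb1a value was not tested. Serpinb5 read 5.15 and 4.84, 4.54 and 4.84, and 4.86 and 4.83 on its leading probe set, and 2.93 to 3.73 on the 3 others. Fitted with no filter, it differed by -0.30 (SE 0.16, adjusted p 0.345) from 1 to 2 weeks. Of 11 measured markers of basal and myoepithelial cells, where maspin is chiefly made in the mammary gland, 6 lay above the filter, and Krt17, Myh11, Oxtr, Cnn1 and Col17a1 below it.

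GW2580 against vehicle at 2 weeks gave no called member. This comparison shares the 2-week vehicle arrays with the one above, so its differences are not independent of those. Of the 6 tested members 0 passed in either direction, where limma called 0.367% of all genes tested (0.0688% higher, 0.298% lower), and with the threshold at 0.1 Serpinb9b alone was added. Without an adjustment, 18.0% of all genes tested had p under 0.05, and of the members only Serpinb9b and Serpinb9g did. The groups did not overlap for 1 member higher (18.3% of all genes) and 1 lower (31.5%), and 3 of 6 differed by more than 0 (41.7%). Serpinb9b was 2.09-fold higher with GW2580 than with vehicle, a difference of 1.07 (SE 0.23, 95% interval 0.54 to 1.59, adjusted p 0.0859). Serpinb9g differed in the opposite direction, by -0.76 (SE 0.20, 95% interval -1.22 to -0.30, adjusted p 0.123). With each array left out, the differences were 0.93 to 1.20 for Serpinb9b and -1.002 to -0.51 for Serpinb9g. Neither sign could turn there, because the groups did not overlap. Without the 2-week vehicle array with the high actin ratio the differences were 1.09 and -0.51. The joint Serpinb9g, Serpinb9e, Serpinb9f and Serpinb9h probe set differed by -0.10 (SE 0.18), so the 2 probe sets that see Serpinb9g gave unlike values here. Serpinb9 differed by 0.24 (95% interval -0.10 to 0.58), and by 0.12 (SE 0.23) on its second probe set. Serpinb6a, Serpinb6b and Serpinb8 differed by -0.06, -0.07 and 0.08, all with intervals that include 0; for Serpinb6b the sign turned to 0.146 without replicate 2 of the GW2580 group.

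**Figure D2:**
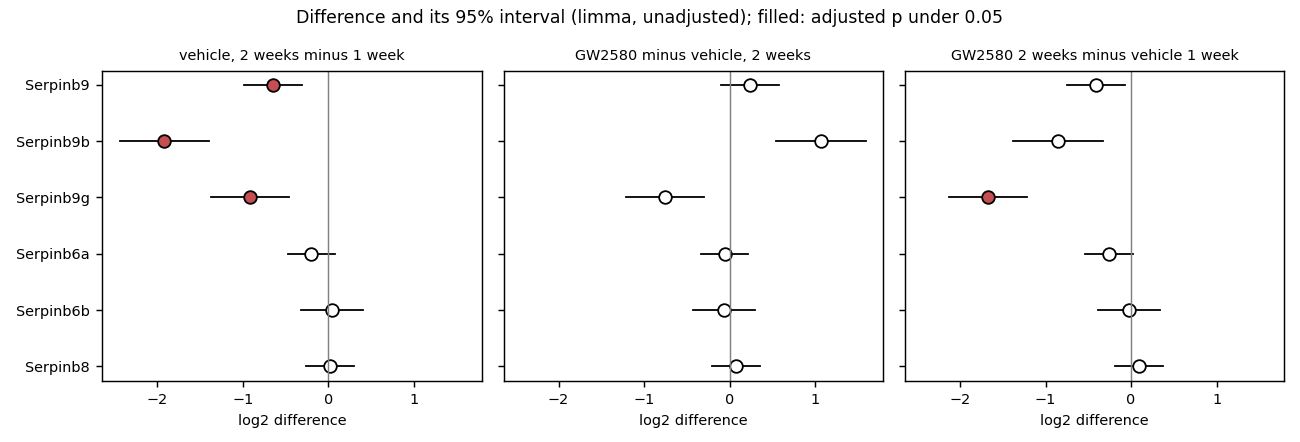
Log2 difference (horizontal axis) of the 6 tested members in the 3 comparisons, from the limma fit over all 6 arrays; lines are unadjusted 95% intervals and filled points passed an adjusted p of 0.05. The filled points are Serpinb9, Serpinb9b and Serpinb9g from 1 to 2 weeks with vehicle and Serpinb9g for GW2580 against 1 week.

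Set against the 1-week arrays, the GW2580 arrays at 2 weeks differed in time and in treatment together. Serpinb9g fell 3.19-fold, by 1.67 log2 units (SE 0.20, adjusted p 0.0229), the only member called. Of all genes tested 0.512% were called, 0.153% lower and 0.359% higher. The groups did not overlap for 4 members lower (27.9% of all genes) and for Serpinb8 higher (18.8%), 3 had an unadjusted p under 0.05 (17.0%), and 1 differed by more than 0 (45.8%). The call was lost without either 1-week array or without replicate 2 of GW2580, with differences of -1.84 to -1.55 and adjusted p of 0.0675 to 0.233. The joint probe set differed by -1.36 (SE 0.18), close behind, with an adjusted p over all probe sets of 0.061. Serpinb9b differed by -0.85 (SE 0.23, adjusted p 0.121), and by -0.49 without replicate 1 of the 1-week group. For Serpinb9 the difference was -0.41 (SE 0.15), for Serpinb6a -0.26, for Serpinb6b -0.03 and for Serpinb8 0.10, none of them called. The Serpinb6b value was 0.185 without replicate 2 of GW2580, and the second probe set of Serpinb8 differed by 0.65 (SE 0.20, adjusted p over all probe sets 0.297).

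**Figure D3:**
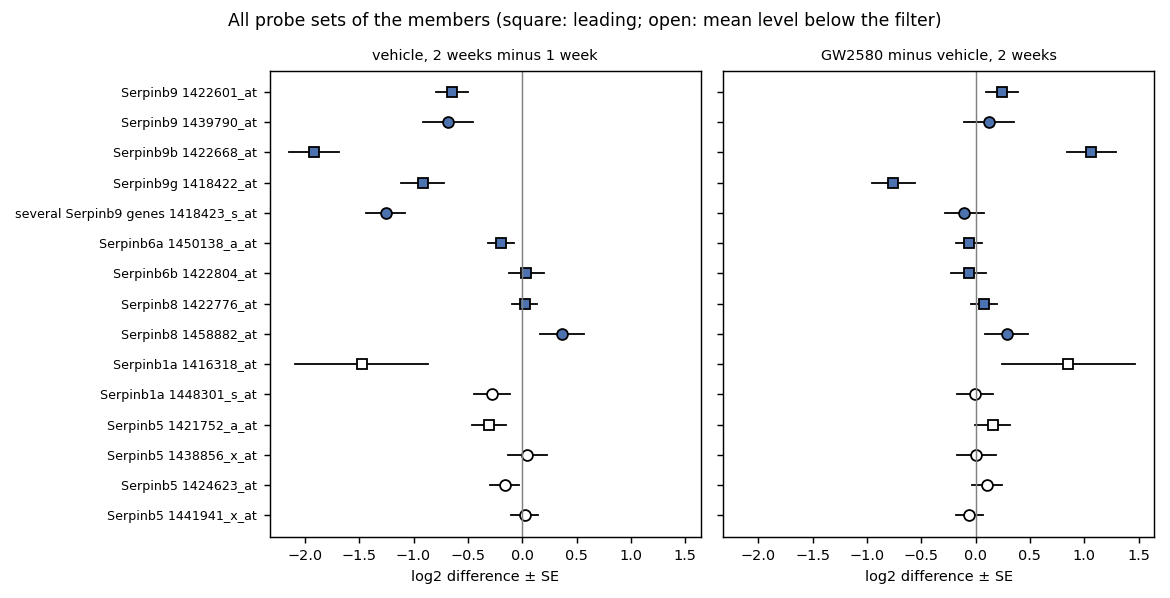
Log2 difference ± SE (horizontal axis, fit over all probe sets) for all 14 probe sets of the 8 genes and the joint Serpinb9 probe set, from 1 to 2 weeks with vehicle and for GW2580 against vehicle; squares lead, and open symbols have a mean below the filter. The 2 probe sets of Serpinb9 lie together at -0.65 and -0.69, while those of Serpinb8 and Serpinb1a lie apart.

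The rest of the family gives the setting for these values. Of 19 further clade B genes listed, 10 had a probe set of their own and 4 were tested: Serpinb2, Serpinb7, Serpinb6e and Serpinb9c. Serpinb2 and Serpinb7 fell from 1 to 2 weeks and the other 2 did not pass. Serpinb7, a clade B gene next to Serpinb2 on chromosome 1 and known from mesangial cells and epidermis, read 7.18 and 7.68, then 5.83 and 6.16, then 7.13 and 7.04. It fell by 1.44 log2 units (SE 0.19, adjusted p 0.0133) from 1 to 2 weeks, and GW2580 against vehicle differed by 1.09 (SE 0.19, adjusted p 0.0647). Serpinb2, the gene of plasminogen activator inhibitor type 2, read 9.24 and 8.08, 5.16 and 6.25, and 7.56 and 7.46. Serpinb6e, on a probe set whose suffix marks probes that can also match other transcripts, differed by -0.41 from 1 to 2 weeks and by 0.36 for GW2580 against vehicle. For Serpinb9c these differences were 0.25 and -0.54, and -0.48 in the latter on its second probe set, which lay below the filter. Among the tested clade B genes, Serpinb2, Serpinb7 and Serpinb9b had their GW2580 arrays between the other 2 groups with no overlap. How many of all genes tested share this order was not counted. Of all genes tested, 25.2% were lower at 2 weeks with vehicle than at 1 week without overlap. With GW2580, 18.3% were higher than with vehicle and 27.9% lower than at 1 week, again without overlap. These comparisons share arrays, so the order is only a description of these genes. In gene order, Serpinb9b sits between Serpinb9, which fell less, and Serpinb1b, which was below the filter, and Serpinb8 lies beyond Serpinb2 and Serpinb10 on chromosome 1 without having passed.

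**Figure D4:**
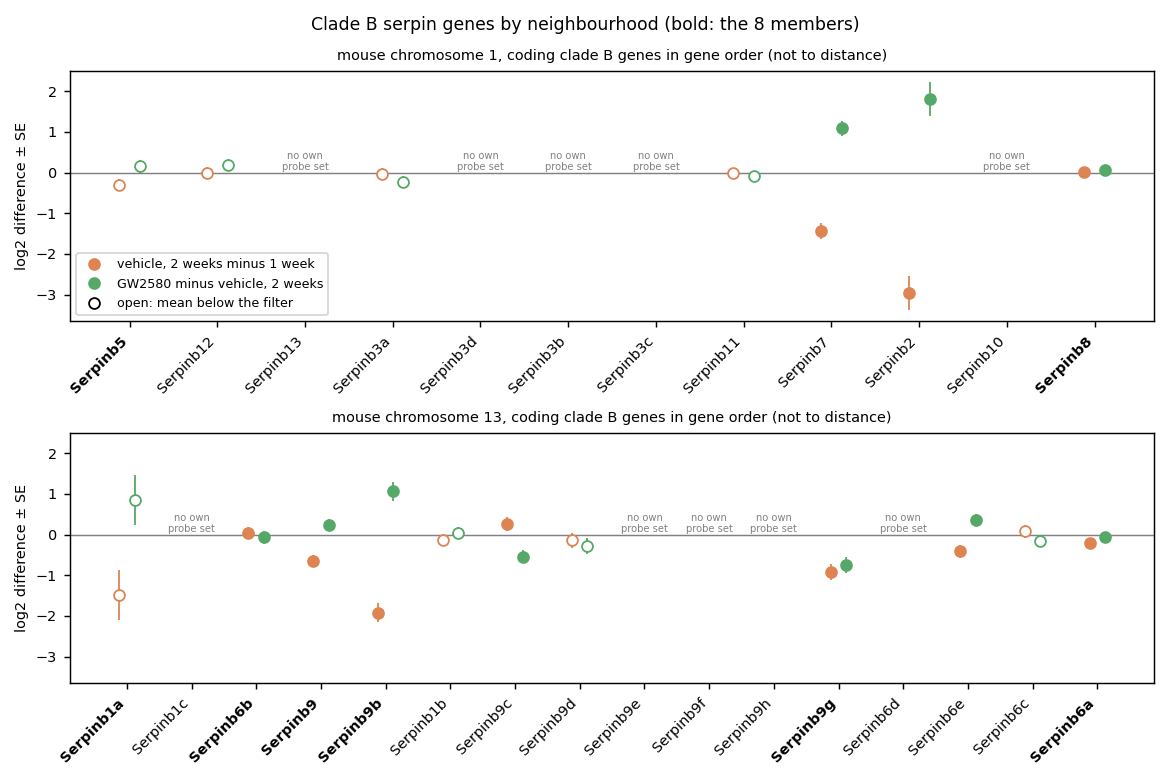
Log2 difference ± SE (vertical axis, leading probe set, fit over all probe sets) of the coding clade B genes in their order along mouse chromosomes 1 and 13, from 1 to 2 weeks with vehicle and for GW2580 against vehicle; open symbols have a mean below the filter. Serpinb7, Serpinb2 and Serpinb9b are the tested genes with the longest distances from 0 in both comparisons.

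Serpins of other clades, mostly secreted, showed no called gene: 0 of 10 tested passed in limma in any comparison (3, 1 and 0 at an unadjusted p under 0.05), with medians of -0.06 from 1 to 2 weeks and 0.02 for GW2580 against vehicle. The nearest were Serpinh1, the collagen chaperone of the endoplasmic reticulum, at -0.60 (adjusted p 0.0656) and 0.74 (adjusted p 0.0878), and the acute-phase gene Serpina3n at 1.18 and -0.92. On its other probe set, in the fit over all probe sets, Serpinh1 differed by -0.80 (adjusted p 0.0416) and 0.72.

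The proteases these serpins are known to meet were mostly not called. Among 7 tested neutrophil and mast cell proteases 0 passed in any comparison (3, 1 and 0 at an unadjusted p under 0.05). Of 10 listed granzyme and perforin genes only 4 were tested, and 0 of them passed (0, 1 and 0). The counts of these and the other lists stand beside 6.45%, 0.367% and 0.512% of all genes tested, called in the 3 comparisons. Lists this short would hold few calls at such shares. Elane, Gzmb, Casp1 and Furin are named here for their role as targets, after their values were seen. The neutrophil elastase gene Elane differed by 0.03 from 1 to 2 weeks and by 0.13 with GW2580, and the granzyme B gene Gzmb by 0.15 and -0.16. Casp1, for the inflammatory caspase, differed by 0.09 and -0.11. The furin gene Furin, whose product Serpinb8 inhibits, differed by 0.48 and -0.31, and neither passed. Of 10 cysteine cathepsins, lysosomal proteases that some clade B serpins inhibit, Ctsh rose by 0.83 (SE 0.19, adjusted p 0.0442) and Ctsc, which activates granule proteases, fell by 0.95 (SE 0.19, adjusted p 0.0331) from 1 to 2 weeks. The second probe set of Ctsh differed by 0.89, and 2 of Ctsc that lay below the filter by -0.09 and 0.09. Of 7 tested caspases Casp4 rose by 0.74 (adjusted p 0.0416). Casp12 was not called on its leading probe set. Its second probe set differed by 0.76 in the limma fit over all probe sets, with an adjusted p of 0.0325 there. The convertase gene Pcsk4 rose by 0.91 (adjusted p 0.0157) among 4 tested, and with GW2580 it fell by 0.95 (adjusted p 0.0446).

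Other inhibitors and the plasminogen activators moved singly. Among 3 tested cystatins, inhibitors of cysteine cathepsins, Cst3 rose from 12.18 and 12.44 to 13.07 and 13.06 (difference 0.76, adjusted p 0.0303) and stood at 13.03 and 13.24 with GW2580. Of 5 tested genes of plasminogen activators, their receptor and coagulation, Plau, for urokinase, fell by 0.57 (adjusted p 0.0393) and the tissue factor gene F3 rose by 0.83 (adjusted p 0.0331). The second probe set of Plau differed by -1.52 from 1 to 2 weeks and by 1.10 for GW2580 against vehicle, both past an adjusted p of 0.05 over all probe sets (0.0157 and 0.0462), against 0.55 (adjusted p 0.0919) on the leading one. Of 12 tested genes of death receptors and the response to cytolysis, Birc5, for survivin, fell by 1.00 (adjusted p 0.0167), a gene also tied to mitosis. None of these lists had a called member for GW2580 against vehicle other than Pcsk4, and none for GW2580 against 1 week; at an unadjusted p under 0.05 each list had 0 to 2 and 0 to 3 members there.

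The genes most like the called members over the 6 arrays were taken from 578 genes with an SD of at least 0.5 log2 units, as a description over arrays that share their groups. Gpr39, for a zinc-sensing receptor, followed Serpinb9b with r = 0.996, at 7.53 and 7.16, 6.19 and 6.33, and 6.94 and 6.83. Next came Gatm, for the first enzyme of creatine synthesis, with r = 0.985. Closest to Serpinb9 were Pank1, for a pantothenate kinase of coenzyme A synthesis, with r = 0.991, and Ankle1, for a nuclease, with r = 0.983. Of the other probe sets of Pank1, the only one above the filter differed by -1.04 from 1 to 2 weeks and the 2 below it by 0.12 and 0.24. Nearest to Serpinb9g were Phex, for a membrane metallopeptidase, with r = 0.977, and Dclk1, for a microtubule-linked kinase, with r = 0.948. Phex read 6.88 and 6.89, then 5.57 and 6.44, then 5.25 and 5.56 with GW2580, and its other probe set, below the filter, differed by -0.13 from 1 to 2 weeks. For Dclk1 the 2-week groups overlapped, and the 8 other probe sets differed by -0.88 to -0.10 from 1 to 2 weeks.

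Markers of other cells were read on the same arrays, since a sorted sample can hold some of them and, in bulk RNA, fewer cells of a type cannot be told apart from less RNA per cell. Serpinb9 is made by lymphocytes and dendritic cells as well as by tumour cells. Of 11 measured NK and T lymphocyte markers 9 lay above the filter, Ncr1 and Klrd1 below it, and the log2 of their summed level was 9.35 and 9.29 at 1 week, 9.21 and 9.14 at 2 weeks with vehicle and 9.34 and 9.30 with GW2580. The macrophage and monocyte markers, 12 of 13 above the filter and Itgam below it, summed to 11.79 and 11.94, 12.07 and 12.26, and 11.74 and 12.35. The 7 measured dendritic cell markers, with Xcr1 below the filter, summed to 10.81 and 10.82, 10.71 and 10.83, and 10.67 and 10.94. Basal and myoepithelial markers summed to 12.06 and 11.75, 11.03 and 11.16, and 11.32 and 11.07, with the endothelial receptor and stem cell marker gene Procr called lower at 2 weeks (-0.91, adjusted p 0.0249). Procr made up most of that sum, at 11.84 and 11.54, 10.70 and 10.86, and 11.04 and 10.77. Krt5 read 6.17 to 6.31, Trp63 5.03 to 5.32 and Lgr5 5.04 to 5.48. Krt14 and Acta2 ranged more, over 4.68 to 6.10 and 6.84 to 7.96. The 10 fibroblast and smooth muscle markers, all above the filter, summed to 12.76 and 11.59, 10.86 and 10.96, and 12.02 and 10.58. On this last list the GW2580 arrays differed by more than a log2 unit. The 12 lung epithelial markers, all above the filter, summed to 12.16 and 11.43, 11.38 and 11.15, and 11.86 and 10.42. Among them the club cell genes Scgb1a1, Scgb3a1, Scgb3a2 and Cyp2f2 had their group means in the same order as Serpinb9b. They were highest at 1 week and lowest at 2 weeks with vehicle. Genes of other lists had this order too, among them Col1a2, Col3a1 and Dcn of the fibroblast list and the luminal gene Csn3. Of the fibroblast list, Col1a1 and Pdgfra did not. Scgb1a1 read 11.31 and 9.59, then 6.49 and 8.08, then 10.91 and 7.59, and Scgb3a2 read 8.12 and 6.51, 4.71 and 5.40, and 7.88 and 5.52. None of the 4 club cell genes passed in any comparison, and these 2 had GW2580 arrays far apart. The rest of the lung epithelial list did not share that order. Sftpa1, Sftpb, Sftpc, Sftpd, Ager and Aqp5 had their highest group mean at 2 weeks with vehicle, and Hopx and Foxj1 with GW2580. NK and T cell, basal, lung epithelial and fibroblast sums were each highest on replicate 1 of the 1-week group, where Serpinb9b was highest too. The part of these cells in the serpin values was not tested. The sum of the luminal list, which served to check the tumour cells, was highest there as well. Its mean was not, at 7.13 against 7.19 and 7.20 on the GW2580 arrays. On its leading probe set, no lymphocyte, neutrophil, macrophage, dendritic cell, endothelial, fibroblast or erythroid marker passed the test in any of the 3 comparisons. The other probe set of the neutrophil marker Mmp9, above the filter, was read in the limma fit over all probe sets. It differed by -0.89 from 1 to 2 weeks (adjusted p 0.0267) and by 0.84 for GW2580 against vehicle (adjusted p 0.0536). Of the remaining lists, Csn3 fell by 0.95 among luminal markers from 1 to 2 weeks, Sftpd rose by 0.89 among lung epithelial ones, and with GW2580 Sftpd and Sftpa1 fell by 1.12 and 1.78.

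**Figure D5:**
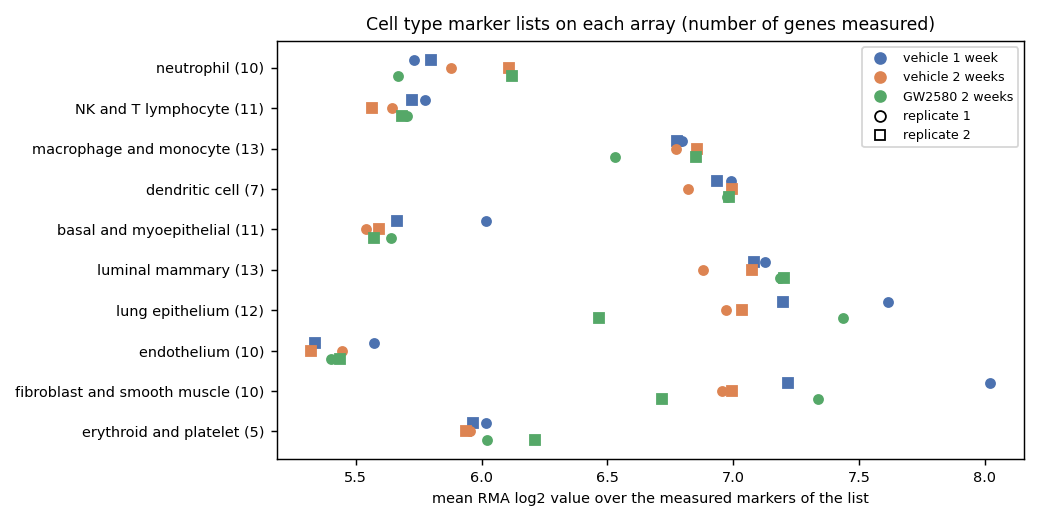
Mean RMA log2 value over the measured markers of each of 10 cell type lists (horizontal axis) on each array, by group (colour) and replicate (symbol); the number of genes measured stands in brackets. The fibroblast and smooth muscle list spreads from 6.72 to 8.02, with replicate 1 of the 1-week group highest, and the NK and T lymphocyte list stays between 5.56 and 5.77.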

How the data were processed

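Gene expression was measured on 6 Affymetrix arrays, 1 per sample, from 2 µg of total RNA each, and samples were grouped by their titles. Per the submitters' processing notes, the authors made the deposited log2 values with RMA, which corrects background, quantile-normalises arrays and summarises probes; a change common to most genes is removed by it. Arrays give no read depth; their number limits the precision. Of 45101 probe sets, 64 controls were left out; 34945 of the rest had 1 gene symbol, 932 several and 9160 none there.

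From these values limma 3.58.1 (R 4.3.3) fitted a mean per group over all 6 arrays (lmFit, eBayes without trend, not robust; 3 residual and 4.97 prior degrees of freedom), with Benjamini-Hochberg adjustment over 13090 genes per comparison. Each gene was its brightest probe set, filtered at 4.97; other probe sets took a fit over all 45037, where p was adjusted over them. An exact permutation test of 2 against 2 arrays cannot go below 0.333 (two-sided), so none was run. Named were all members, called genes of fixed lists (up to 4, otherwise up to 2 with the smallest p) and the 2 genes most alike to each called member. Members and lists were chosen with earlier results of these data known. Alternatives were other filters, probe set rules, scaling, moderation, arrays, threshold and a replicate block. Promoters are from RefSeq (GRCm38.p6).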

Additional observations from a re-analysis of the deposited data

How the results depend on the processing

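Of 249 member differences recomputed, 230 kept direction and side of the threshold, 15 kept direction but no longer passed and 4 changed sign. Many settings keep the arrays compared and the probe set, so the difference itself could not change, only its adjusted p. Most of the 249 were uncalled to begin with. All 15 losses were of called differences. From 1 to 2 weeks they were Serpinb9 in 6 of 14 settings, Serpinb9b in 1 of 14 and Serpinb9g in 5 of 13. For GW2580 against 1 week they were Serpinb9g in 3 of 13. All 4 sign changes were of uncalled genes. Serpinb8 from 1 to 2 weeks turned to -0.0147 (common 75th percentile) and -0.00398 (leaving out 2-week vehicle replicate 2, range to 0.0457 over single arrays left out). Serpinb6b turned for GW2580 against vehicle and against 1 week, with ranges of -0.277 to 0.146 and -0.237 to 0.185 over single arrays left out. From 1 to 2 weeks, 0 to 3 members and 0 to 1059 genes were called with an array left out; 1 member was called on all probe sets, and 1686 genes at a threshold of 0.1. For GW2580 against vehicle the count of 48 genes became 0 to 167 with an array left out, 0 with only the 4 arrays compared, 74 with no filter, 193 on all probe sets, 131 with trend and robust moderation and 371 at 0.1, where 1 member was called. For GW2580 against 1 week 0 to 1 members and 0 to 169 genes (67 with all arrays) were called with an array left out, 0 members at the 60th percentile filter, which left Serpinb9g out, and 24 genes with only the 4 arrays, 36 on all probe sets, 139 with trend and robust moderation and 435 at 0.1. With the replicate block 3, 0 and 1 members and 1223, 154 and 182 genes were called in the 3 comparisons. Replicate numbers are not stated to pair samples: same-numbered deviations correlated at 0.002, 0.292 and 0.009 between groups. The cause of these changes was not tested.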
